A study of Mus musculus with 6 samples.

Results

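Meis1, Meis2, Msx1, Msx2, Irx3, Irx5, Dlx5 and Prrx1 are homeobox patterning genes that lie outside the Hox clusters. They were taken by name and with no threshold on a measured value, and all 8 were among the 22800 gene symbols of the expression tables. RNA sequencing had been run on murine oviductal epithelial (MOE) cells, a line grown from oviducts of outbred CD1 mice that were pooled from several animals. The study compared early with late passages of this line to ask what repeated passage in culture does to normal oviductal cells. MOELOW was the group of low passages, with 1 library each from passages 8, 9 and 10. MOEHIGH was the group of high passages, with 1 library each from passages 90, 103 and 113. No gene had been deleted or introduced in either group, and both were grown in the same supplemented medium. Because all 6 libraries came from a single line, the p-values below measure the spread between passages of that line and not between animals.

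Homeobox proteins bind DNA through a conserved homeodomain and set the identity of tissues along the body axes. Meis1 and Meis2 belong to the TALE class, whose members bind DNA together with Pbx and Hox proteins, and the Iroquois genes Irx3 and Irx5 belong to the same class. Msx1, Msx2 and Dlx5 act downstream of bone morphogenetic proteins (BMPs) in limb, craniofacial and reproductive tract development, and Prrx1 is a paired-type factor of limb and craniofacial mesenchyme.

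Levels are given in FPKM, fragments per kilobase of transcript scaled to the number of mapped fragments, which takes transcript length into account. Differences are MOEHIGH minus MOELOW on the log2(FPKM + 1) scale, which understates the change of genes with low values. Each library held between 10208 and 10987 genes at 1 FPKM or more. A mean of 0.5 FPKM or more was required for testing, which 11621 genes met, and of these 2826 (24.3%) were higher and 3734 (32.1%) were lower in MOEHIGH at an adjusted p under 0.05 in limma, so that 56.4% of all tested genes were called. The median difference over all tested genes was -0.05. The cells were checked against markers of the labelled cell type. The 8 secretory epithelium markers summed to between 895 and 924 FPKM in MOELOW and to between 1514 and 2439 FPKM in MOEHIGH. Most of this sum was the keratin gene Krt18, with means of 798 and 2029 FPKM. Of the 6 tested, 2 were higher, 1 lower and 3 not called. Pax8 lay between 41.0 and 54.4 FPKM and the keratin gene Krt8 between 22.6 and 55.2 FPKM, and neither was called. However, the epithelial adhesion genes Epcam and Cdh1 were at most 0.0399 and 0.0821 FPKM in any library. These 2 defining markers of an epithelium were thus practically absent. Markers of smooth muscle summed to between 7707 and 11150 FPKM in MOELOW and to between 9.38 and 17.9 FPKM in MOEHIGH. Acta2 and Tagln made up most of this sum (5145 and 5216 FPKM in passage 8). Myh11 and Synpo2 of the same list were at most 0.591 and 0.225 FPKM in any library. Markers of fibroblasts summed to between 596 and 987 FPKM in MOELOW and to between 79.2 and 104 FPKM in MOEHIGH. Of 3 tested markers of ciliated cells, Foxj1 rose, Rsph1 fell and Ccdc39 was not called. Of 5 tested mesothelial markers, Msln, Upk3b and Upk1b rose, Wt1 fell and Krt19 was not called. In a bulk sample, fewer cells of a type and less RNA per cell cannot be told apart.

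Of the 8 genes, 5 fell and 2 rose in late passage, and Dlx5 was listed at 0 in every library. Prrx1 and Msx2 went to 0 or close to it, Meis1 fell 7.85-fold, Meis2 and Msx1 fell less, and Irx3 and Irx5 rose. All 7 tested genes were called, against 56.4% of all genes, and in all 7 no early library overlapped with a late one, as in 64.0% of all genes (28.5% with MOEHIGH above MOELOW and 35.5% with it below). Prrx1 and Msx2 reached the minimum of 0.5 FPKM through MOELOW alone, so the count of 7 is a description and not evidence about the genes as a group. In a limma test that asks for more than a 2-fold difference, Meis1, Msx2 and Prrx1 were called lower and none of the 7 was called higher, beside 7.80% of all genes called lower and 2.61% called higher.

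**Figure D1:**
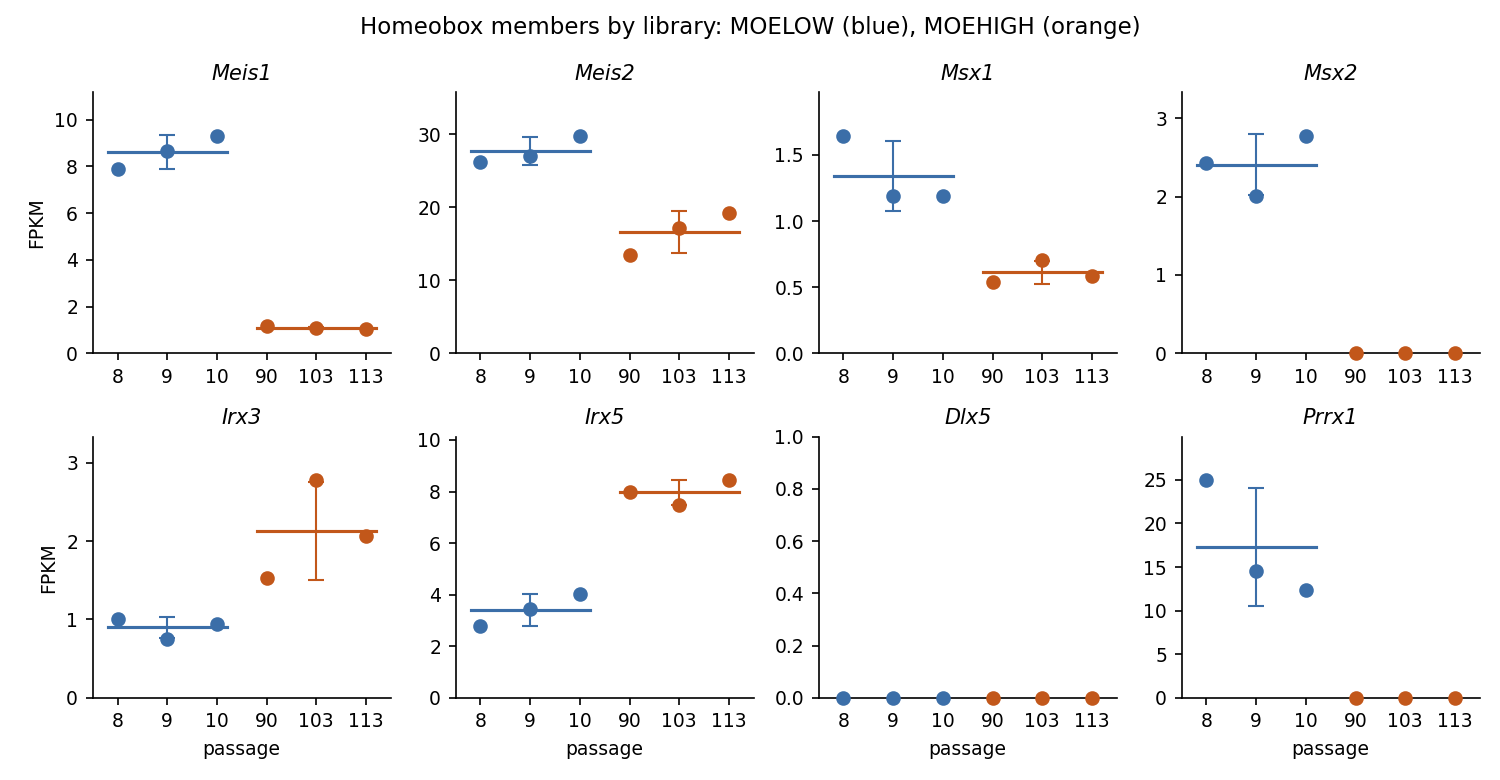
FPKM (linear vertical axes, a separate scale in each panel) of the 8 homeobox genes in the libraries of passages 8, 9 and 10 (MOELOW, blue) and 90, 103 and 113 (MOEHIGH, orange). Points are libraries, horizontal lines are group means and bars are SD, drawn only for groups with no library listed at 0. The blue points lie above the orange ones for Meis1, Meis2, Msx1, Msx2 and Prrx1 and below them for Irx3 and Irx5, and all points of Dlx5 lie at 0.

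The order of the levels differed between the groups. In MOELOW, Meis2 was the highest, with Prrx1, Meis1, Irx5, Msx2, Msx1 and Irx3 below it in that order. The ranges of Irx5 (2.77 to 4.01 FPKM) and Msx2 (2.00 to 2.78 FPKM) overlapped, and no other neighbours in the order did. In MOEHIGH the order was Meis2, Irx5, Irx3, Meis1 and Msx1, with no overlap between neighbours, and Prrx1, Msx2 and Dlx5 stood at or near 0. Irx3, the lowest of the detected members in early passage, thus stood above Meis1 and Msx1 in late passage. Set against all symbols, the mean of Meis2 exceeded that of 85.9% of them in MOELOW and of 79.9% in MOEHIGH, while Irx5 moved from 59.4% to 70.5% and Prrx1 from 79.9% to 37.0%.

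Meis1, a Hox cofactor known for its part in blood and limb development, lies at chr11:18880428-19019651 on the minus strand (mm10, RefSeq annotation of GRCm38.p6). Its level was 7.86, 8.63 and 9.31 FPKM in passages 8, 9 and 10 and 1.15, 1.08 and 1.06 FPKM in passages 90, 103 and 113. All early libraries stood far above all late ones, and the late libraries differed little among themselves. The group means were 8.60 ± 0.726 and 1.10 ± 0.0468 FPKM (SD, n = 3 each), a difference of -2.19 on the log2 scale (SE 0.11, 95% interval -2.44 to -1.94, limma adjusted p = 2.3e-06). A stretch before a transcript start of Meis1 is shown because the gene had the largest fold fall among the members that stayed above 0 in every library. It covers chr11:19018986-19019219 on the minus strand, 5′ to 3′, leaving out annotated exons. The start that the RefSeq promoter table uses lies 682 bases inside the gene's full span, so the stretch is within the gene as positioned above, and 60.3% of its bases are G or C.
Meis1: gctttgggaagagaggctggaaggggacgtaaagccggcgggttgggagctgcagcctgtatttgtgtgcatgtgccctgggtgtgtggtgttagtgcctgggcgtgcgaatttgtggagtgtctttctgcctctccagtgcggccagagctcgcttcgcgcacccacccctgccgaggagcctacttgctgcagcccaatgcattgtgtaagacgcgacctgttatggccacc

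Meis2, the close relative of Meis1, lies at chr2:115861264-116067537 on the minus strand. Its level was 26.3, 27.0 and 29.8 FPKM in MOELOW and 13.5, 17.2 and 19.2 FPKM in MOEHIGH. The late libraries were all lower than the early ones but spread more widely, and passage 90 was the lowest. The mean went from 27.7 ± 1.89 to 16.6 ± 2.90 FPKM (SD, n = 3 each), which was 1.67-fold lower, with a log2 difference of -0.71 (SE 0.14, 95% interval -1.04 to -0.39, limma adjusted p = 0.0031). Meis1 fell further than Meis2 in every late library. The log2 ratio of Meis1 to Meis2, with 1 added to each FPKM, was -1.62, -1.54 and -1.58 in MOELOW and -2.75, -3.13 and -3.30 in MOEHIGH, a difference of -1.48. With nothing added, a setting chosen after seeing the data, the ratio was -1.74, -1.65 and -1.68 in MOELOW and -3.55, -3.99 and -4.18 in MOEHIGH, a difference of -2.22. The groups did not overlap on either scale. For the first scale the exact two-sided permutation p was 0.1, the smallest that 3 against 3 libraries allow, and 0.15 after adjustment over the 3 pairs compared.

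The other TALE genes moved in both directions. Of 14 listed, 11 were tested, of which 4 rose, 4 fell and 3 were not called, with a median difference of -0.15 beside -0.05 for all genes. Pbx3, which encodes a DNA-binding partner of Meis proteins, rose from 9.36 ± 0.189 to 13.3 ± 1.10 FPKM (SD, n = 3 each, log2 difference 0.47, limma adjusted p = 0.0057), a call that was lost with libraries scaled to equal sums (limma adjusted p = 0.076) and relative to the median of its chromosome (difference 0.24, limma adjusted p = 0.077). Pbx2 had means of 8.28 and 7.26 FPKM and did not pass the test (limma adjusted p = 0.29). Meis3, another Meis gene, went the opposite way to Meis1 and Meis2, from 1.87 ± 0.566 to 4.78 ± 1.56 FPKM (limma adjusted p = 0.0070, and 0.057 without the filter on low values). Pknox2, a relative of the Meis genes that also pairs with Pbx, was at 9.85, 7.18 and 7.42 FPKM in MOELOW and at 0, 0.0143 and 0.0240 FPKM in MOEHIGH. Pknox2 thus resembled Prrx1 and Msx2 in being practically lost from the late libraries (limma adjusted p = 1.1e-06).

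Hox genes of the A cluster, whose proteins bind DNA with Meis and Pbx, also moved both ways: of 11 listed, 8 were tested, with 3 higher, 3 lower and 2 not called. Hoxa10, which patterns the uterus, was at 0.0285, 0 and 0.0265 FPKM in MOELOW and at 5.45, 6.28 and 8.28 FPKM in MOEHIGH. Retinoic acid induces Meis genes in several tissues, and its pathway was examined beside them. Of its 12 tested genes among 18 listed, 8 fell and 2 rose (83.3% called, median difference -1.32). Aldh1a2, which makes retinoic acid, fell from 102 ± 24.3 to 0.0722 ± 0.00431 FPKM (limma adjusted p = 1.7e-07), and the receptor gene Rarb fell from 10.96 ± 1.39 to 0.0401 ± 0.0104 FPKM (limma adjusted p = 3.8e-07). Rxra, a shared partner of nuclear receptors, rose from 5.24 to 11.8 FPKM (limma adjusted p = 0.00066). Whether these changes bear on Meis1 and Meis2 was not tested.

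Irx3 and Irx5 were the members that rose. Both lie in the Iroquois cluster of chromosome 8, and both encode TALE factors that pattern the heart, limb and ovary. Irx3 lies at chr8:91798511-91801654 on the minus strand and had 1.003, 0.7505 and 0.944 FPKM in MOELOW and 1.53, 2.78 and 2.07 FPKM in MOEHIGH. The late libraries were all above the early ones, with passage 103 the highest. The mean went from 0.899 ± 0.132 to 2.13 ± 0.625 FPKM (SD, n = 3 each), 2.37-fold higher, with a log2 difference of 0.70 (SE 0.16, 95% interval 0.33 to 1.07, limma adjusted p = 0.0064).

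Irx5 lies at chr8:92357796-92361456 on the plus strand. It had 2.77, 3.43 and 4.01 FPKM in MOELOW and 8.00, 7.48 and 8.44 FPKM in MOEHIGH. The groups were well apart, and the late libraries lay close together. The mean went from 3.40 ± 0.624 to 7.97 ± 0.482 FPKM (SD, n = 3 each), 2.34-fold higher, with a log2 difference of 1.04 (SE 0.13, 95% interval 0.73 to 1.34, limma adjusted p = 0.00036). The log2 ratio of Irx3 to Irx5, with 1 added to each FPKM, was -0.91, -1.34 and -1.37 in MOELOW and -1.83, -1.17 and -1.62 in MOEHIGH. These ratios overlapped (difference -0.33, exact two-sided permutation p = 0.3, also 0.3 after adjustment). With nothing added, the ratio was -1.46, -2.19 and -2.09 in MOELOW and -2.38, -1.43 and -2.03 in MOEHIGH, a difference of -0.033 (exact two-sided permutation p = 1), so the larger value on the first scale came from the added 1. Overlap does not show that the pair moved alike.

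Genes of chromosome 8 were more often higher than lower: of 646 tested, 290 rose and 118 fell, with a median difference of 0.29. Measured against that median, Irx5 remained higher (difference 0.74, limma adjusted p = 0.0022), whereas Irx3 did not pass the test (difference 0.41, limma adjusted p = 0.059). The copy number of chromosome 8 was not measured here, and its part in these values was not tested.

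The other Iroquois genes did not follow. Irx1 and Irx2 lie in the second Iroquois cluster, on chromosome 13. Irx1 had 3.35, 1.04 and 0.947 FPKM in passages 8, 9 and 10 and was listed at 0 in all late libraries (limma adjusted p = 0.0044). Irx2 had 1.25, 0.806 and 0.683 FPKM in early passage and was listed at 0 in all late libraries, and its mean was under the minimum for testing. Irx4 of chromosome 13 and Irx6 of chromosome 8 were listed at 0 in all 6 libraries. The detected genes of one cluster were thus higher and those of the other lower in the late libraries.

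**Figure D2:**
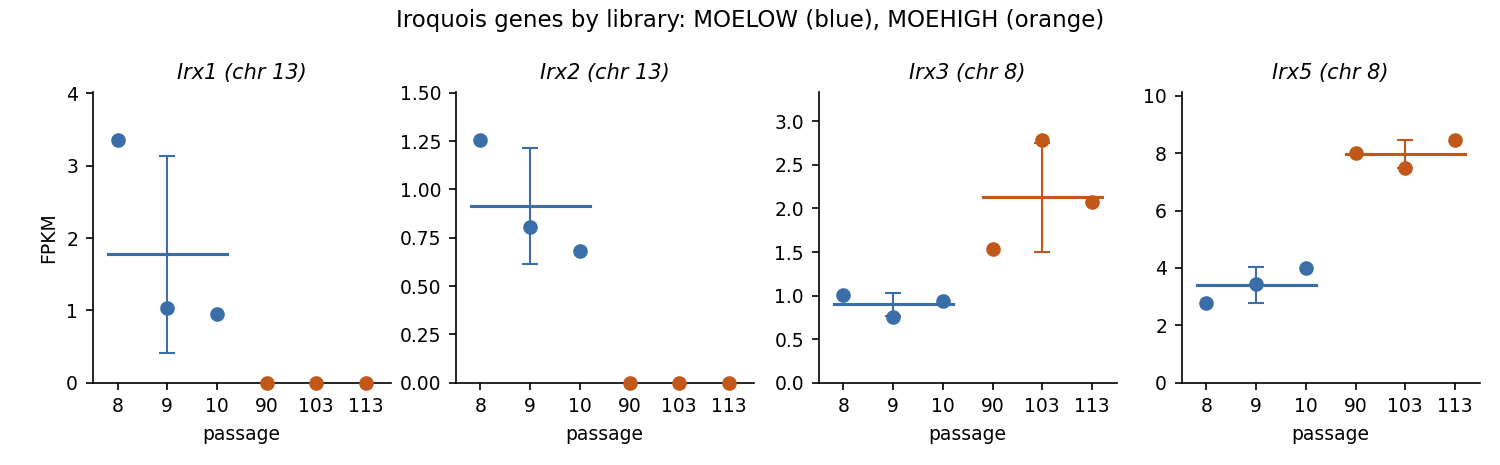
FPKM (linear vertical axes, a separate scale in each panel) of the 4 Iroquois genes with values above 0, by passage, with MOELOW in blue and MOEHIGH in orange. Points are libraries, lines are means and bars are SD, drawn only for groups with no library listed at 0. Irx1 and Irx2 of chromosome 13 lie at 0 in the late libraries, whereas Irx3 and Irx5 of chromosome 8 lie higher there than in every early library.

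Msx1 lies at chr5:37820491-37824585 on the minus strand and encodes a repressor that acts in tooth, palate and uterine development. Its level was low throughout, at 1.65, 1.19 and 1.19 FPKM in MOELOW and 0.541, 0.707 and 0.586 FPKM in MOEHIGH. The groups did not overlap, and passage 8 was the highest. The mean went from 1.34 ± 0.263 to 0.611 ± 0.0857 FPKM (SD, n = 3 each), 2.196-fold lower, with a log2 difference of -0.54 (SE 0.12, 95% interval -0.81 to -0.26, limma adjusted p = 0.0060). This call was kept with libraries scaled to equal sums, equal upper quartiles or by median ratios (-0.56, -0.52 and -0.51, limma adjusted p = 0.0069, 0.0060 and 0.0075). It was lost after quantile normalization, which raised the median difference of all genes to 0.10. The difference of Msx1 was then -0.011 (limma adjusted p = 0.94). Set against all symbols, the mean of Msx1 hardly changed its rank, exceeding that of 53.3% of them in MOELOW and 52.9% in MOEHIGH.

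Msx2, which acts beside Msx1 in skull, limb and Mullerian duct development, lies at chr13:53466881-53472780 on the minus strand. Its level was 2.43, 2.00 and 2.78 FPKM in MOELOW, and it was listed at 0 in all 3 MOEHIGH libraries (limma adjusted p = 1.1e-05). Early Msx2 was above early Msx1 in each library, and late Msx1 was above late Msx2. No ratio of the pair is given, since Msx2 was at 0 in a whole group. Msx1 remained above 0 in all late libraries, and Msx2 did not.

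Dlx5, which acts in bone and in the urogenital tract, lies at chr6:6877801-6882068 on the minus strand and was listed at 0 in all 6 libraries, so it was not tested. Its neighbour Dlx6 was also listed at 0 in all 6. Dlx3 and Dlx4 were under the minimum for testing. Dlx3 was listed at 0 in MOELOW and was at 0.112, 0.0571 and 0.0176 FPKM in MOEHIGH. Dlx4 was at 0, 0.0347 and 0 FPKM in MOELOW and at 0.143, 0.189 and 0.0878 FPKM in MOEHIGH. Dlx1 and Dlx2, the tested genes of the family, had means of 1.16 and 2.82 FPKM in MOELOW and 1.48 and 1.38 FPKM in MOEHIGH. Dlx2 passed the test (log2 difference -0.72, limma adjusted p = 0.025) and Dlx1 did not (limma adjusted p = 0.16). The call of Dlx2 was lost when passage 9, 103 or 113 was left out (limma adjusted p = 0.091, 0.084 and 0.065).

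The BMP pathway, upstream of Msx and Dlx genes in many tissues, was examined beside them: of 28 genes, 19 were tested, with 1 higher, 10 lower and 8 not called (57.9% called, near the 56.4% of all genes, median difference -0.66). Id3, a direct BMP target, fell from 172 ± 23.6 to 17.2 ± 6.74 FPKM (log2 difference -3.30, limma adjusted p = 1.7e-05). The inhibitor gene Fst fell from 168 ± 20.9 to 37.2 ± 9.33 FPKM (log2 difference -2.16, limma adjusted p = 4.6e-05). Id2, another target, rose from 125 ± 36.9 to 225 ± 19.4 FPKM (log2 difference 0.87, limma adjusted p = 0.0067, and 0.051 without the filter on low values). Targets and inhibitors of the pathway were thus among the genes that fell, and a target was the gene that rose.

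Promoters were taken from the RefSeq table, which held 6 of the 8 members, as the 250 bases before the transcript start that this table uses. For Meis1, Meis2 and Prrx1 that start lies 682, 2918 and 1495 bases inside the gene's full span, and these 3 windows are within the gene. The letters TAATTA, a core that many homeodomains bind and that reads the same on both strands, occurred before Msx2 and Prrx1 and in 4.84% of 32851 promoter windows. TGACAG, the core of Meis sites, and ACANNTGT, an Iroquois core, were searched on both strands and occurred before none of the 6 members, and in 15.9% and 6.31% of all windows. The TAATTA before Msx2 started 187 bases before the start in the table, in a stretch shown for its match at chr13:53472952-53472977 on the minus strand, where capitals mark the match. Unlike the other stretches printed, it lies within an exon of the GENCODE annotation. The window before Msx1 (chr5:37824586-37824835, minus strand, 68.0% G or C) is shown beside it because Msx1 stayed detectable in the late libraries. A match of letters is a description of the sequence and not a measured binding site.
Msx2 site: actgctcctgTAATTAactcctaatt
Msx1: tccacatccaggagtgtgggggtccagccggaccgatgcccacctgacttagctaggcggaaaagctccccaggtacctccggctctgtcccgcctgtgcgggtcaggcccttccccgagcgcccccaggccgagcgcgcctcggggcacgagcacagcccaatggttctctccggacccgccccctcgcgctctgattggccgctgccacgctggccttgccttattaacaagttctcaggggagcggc

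Prrx1 had the largest fitted difference of the 7 tested members. Its protein acts in limb bud and craniofacial mesenchyme, and the gene lies at chr1:163245119-163315145 on the minus strand. Its level was 24.97, 14.6 and 12.4 FPKM in MOELOW and 0, 0.01999 and 0 FPKM in MOEHIGH. Every early library was far above every late one, and passage 8 was the highest. The difference was -4.12 on the log2(FPKM + 1) scale (SE 0.23, 95% interval -4.66 to -3.59, limma adjusted p = 4.3e-06), and it lay between -4.32 and -3.84 when any 1 library was left out. The sequence before Prrx1 is shown because it holds the other TAATTA match, in capitals, 173 bases before the start in the table, which lies inside the gene's full span. It covers chr1:163313711-163313900 on the minus strand, 5′ to 3′, leaving out annotated exons.
Prrx1: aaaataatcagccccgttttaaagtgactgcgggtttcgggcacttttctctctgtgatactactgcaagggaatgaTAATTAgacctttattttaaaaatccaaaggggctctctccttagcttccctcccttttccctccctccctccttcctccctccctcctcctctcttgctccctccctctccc

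The related gene Prrx2 was at 16.6, 12.9 and 10.7 FPKM in MOELOW and at 1.85, 0.245 and 0 FPKM in MOEHIGH (log2 difference -3.22, limma adjusted p = 0.00019). Both Prrx genes thus had their highest value in passage 8 and fell in the late libraries. Of 18 other paired-type genes listed, 5 were tested, with 2 higher, 2 lower and 1 not called. Pitx1, which sets hindlimb identity, was listed at 0 in all early libraries and was at 11.4, 7.36 and 12.8 FPKM in the late ones (limma adjusted p = 3.4e-06).

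Mesenchymal and osteogenic genes, among which Prrx1 is usually counted, were examined beside it. Of 14 listed, 10 were tested, with 8 lower, 1 higher and 1 not called (90% called, median difference -2.08). Tnc, a matrix glycoprotein gene, fell from 226 ± 56.0 to 0.461 ± 0.241 FPKM (log2 difference -7.26), and Twist1 fell from 43.3 to 12.2 FPKM (log2 difference -1.76). Twist2 went the other way, from 5.94 ± 2.67 to 62.8 ± 15.7 FPKM (log2 difference 3.24, limma adjusted p = 3.9e-05). Runx2, a regulator of bone formation, had means of 4.63 and 5.196 FPKM and did not pass the test (limma adjusted p = 0.41).

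Within MOELOW the summed stromal markers were highest in passage 8, as Prrx1 was. The 10 fibroblast markers summed to 987, 596 and 726 FPKM in passages 8, 9 and 10, and 7 of the 10 were highest in passage 8. The 8 smooth muscle markers summed to 11150, 8502 and 7707 FPKM, in the same order as Prrx1, and all 8 were highest in passage 8. Their sums in MOEHIGH were far lower, as given above. The fibroblast list also held Twist2, at 4.87, 3.96 and 8.98 FPKM in MOELOW and higher in MOEHIGH, and Dcn, which was not called. A peak in passage 8 was not confined to the stromal lists. It was found for 5 of 8 secretory, 3 of 4 ciliated, 5 of 7 mesothelial, 4 of 8 endothelial and 2 of 8 leukocyte markers. The 8 endothelial markers summed to between 9.13 and 11.8 FPKM in MOELOW and to between 0.196 and 0.372 FPKM in MOEHIGH. All 3 of them that were tested (Kdr, Flt1 and Esam) fell, and the defining markers Cdh5 and Vwf were listed at 0 in all 6 libraries. The part of other cell types in the values of Prrx1 was not tested.

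Across all 4 lists of other homeobox genes outside the Hox clusters, 98 of 99 symbols were in the tables and 41 were tested. Of these, 12 rose, 15 fell and 14 were not called (65.9% called, median difference -0.17). A further 57 had means under the minimum, of which 29 were listed at 0 in all 6 libraries. Among the more abundant ones, the repressor gene Cux1 fell from 45.7 ± 2.71 to 21.6 ± 0.962 FPKM (log2 difference -1.04, limma adjusted p = 5.9e-05), and Zeb1, known from epithelial to mesenchymal transition, fell from 14.7 to 6.96 FPKM (limma adjusted p = 0.00098). Each of the 4 lists held called genes of both directions in this fit, but among the Msx, Dlx and NK-like genes the 2 lower calls (Dlx2 and Hlx) were both lost after quantile normalization and without passage 9.

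**Figure D3:**
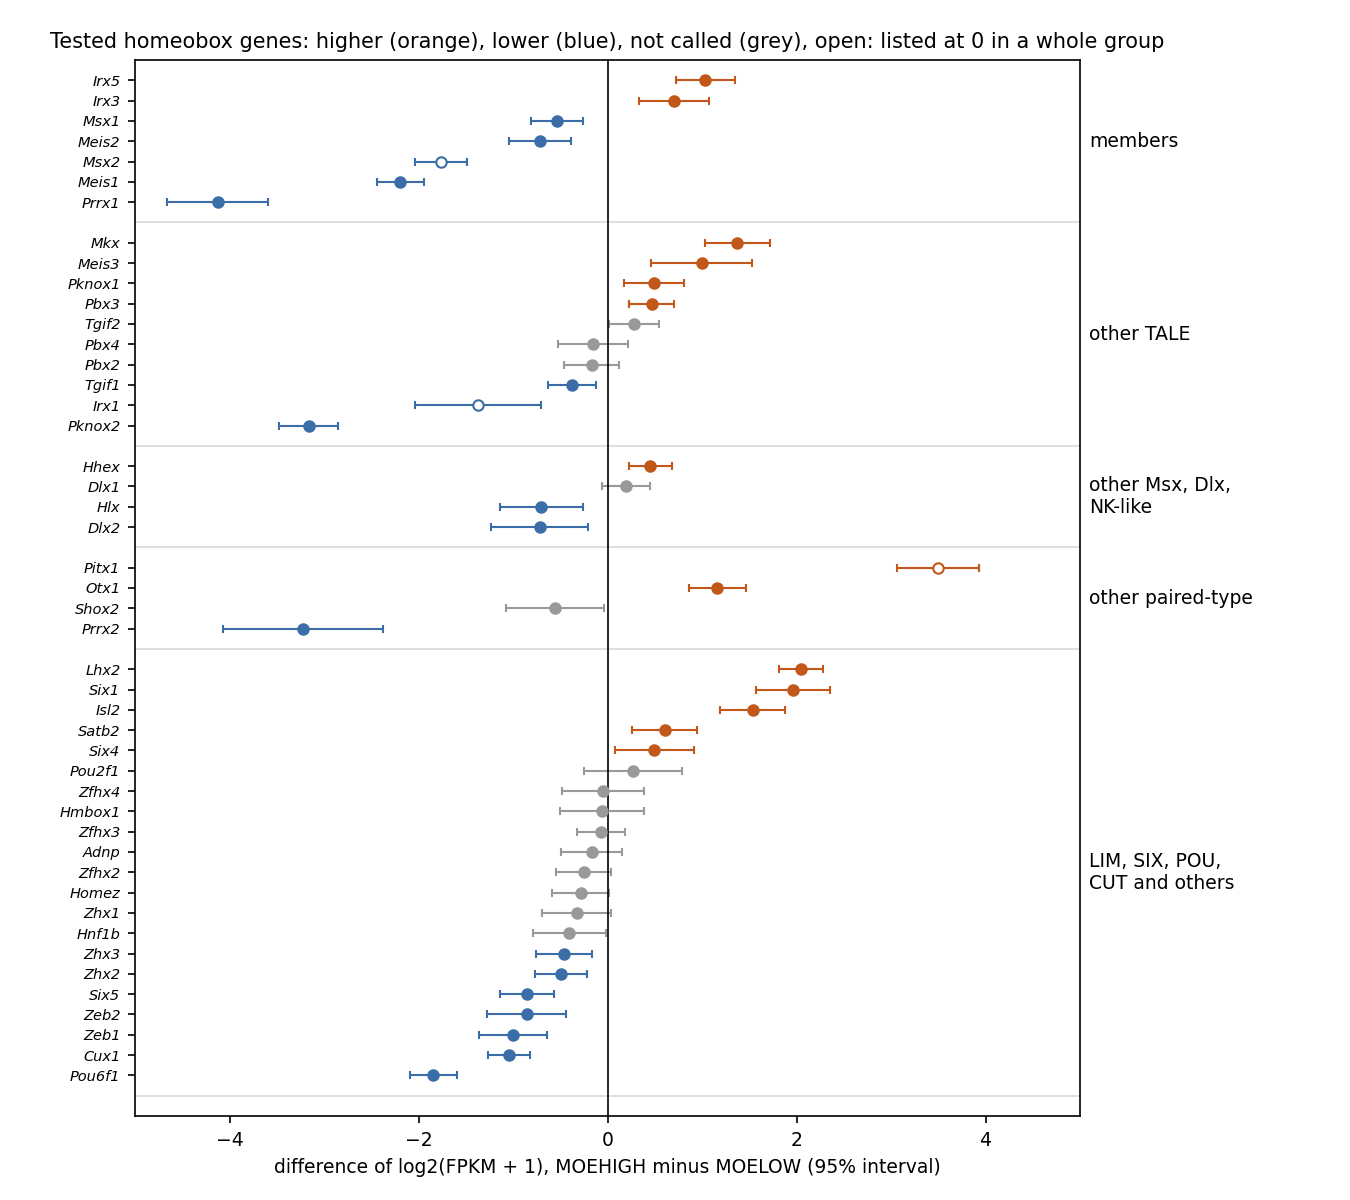
Difference of log2(FPKM + 1), MOEHIGH minus MOELOW, with its 95% interval from limma, for the 7 tested members and 39 of the other tested homeobox genes, grouped by family. Orange genes were called higher, blue lower and grey not called, and open circles stand for genes listed at 0 in a whole group, whose place on the axis depends on the 1 FPKM added. Members lie between -4.12 (Prrx1) and 1.04 (Irx5), and every family has points on both sides of 0.

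The 3 nearest tested genes on each side of each member were examined to see whether the members moved with their surroundings. These were 45 different genes, Irx3 and Irx5 being neighbours of each other. Of them, 12 were higher, 14 lower and 19 not called, with a median difference of -0.10. These shares were near those over all tested genes, of which 24.3% were higher and 32.1% lower. Beside Prrx1, 4 of the 6 were not called, and all 6 lay between -0.64 and 0.59, far from the -4.12 of Prrx1. The nearest of them, Gorab, had a difference of -0.30 (limma adjusted p = 0.08). Beside Meis1, the nearest tested genes on either side, Etaa1 and Spred2, were not called (limma adjusted p = 0.46 and 0.69). Beside Meis2, which fell, 4 of the 6 rose and none fell, among them BC052040, from 3.68 to 8.79 FPKM (log2 difference 1.07, limma adjusted p = 0.00013). Chromosome 2 as a whole was shifted upwards, with 369 genes higher and 190 lower of 926 tested and a median difference of 0.22. Chromosomes 1, 5 and 13, which hold Prrx1, Msx1 and Msx2, were shifted the other way. Their median differences were -0.20, -0.13 and -0.13, with 129, 131 and 79 genes higher and 267, 264 and 139 lower. The median of chromosome 11, which holds Meis1, was -0.043.

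Neighbours of the members on chromosomes 5, 13 and 8 were mixed. Beside Msx1, 3 of the 6 fell and 1 rose, and Nsg1 went from 13.4 to 0.184 FPKM (log2 difference -3.59, limma adjusted p = 1.1e-06). Beside Msx2, 2 fell and 1 rose. The gene nearest to Irx5, at a distance of 1.68 kb, was 4933436C20Rik, a long non-coding RNA gene also named Crnde, which rose from 1.11 to 6.04 FPKM (log2 difference 1.75, limma adjusted p = 3.1e-05), more than Irx5 itself did on that scale. Fto, 130 kb from Irx3, rose from 16.4 to 21.5 FPKM (log2 difference 0.37, limma adjusted p = 0.014), but not when passage 9, 10 or 103 was left out (limma adjusted p = 0.063, 0.054 and 0.052) or relative to the chromosome median (limma adjusted p = 0.55). On the far side of Irx5, the matrix protease gene Mmp2 fell from 280 to 5.89 FPKM (log2 difference -5.37, limma adjusted p = 2.1e-07). The rise of the Iroquois genes of chromosome 8 was therefore not shared by all genes around them.

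**Figure D4:**
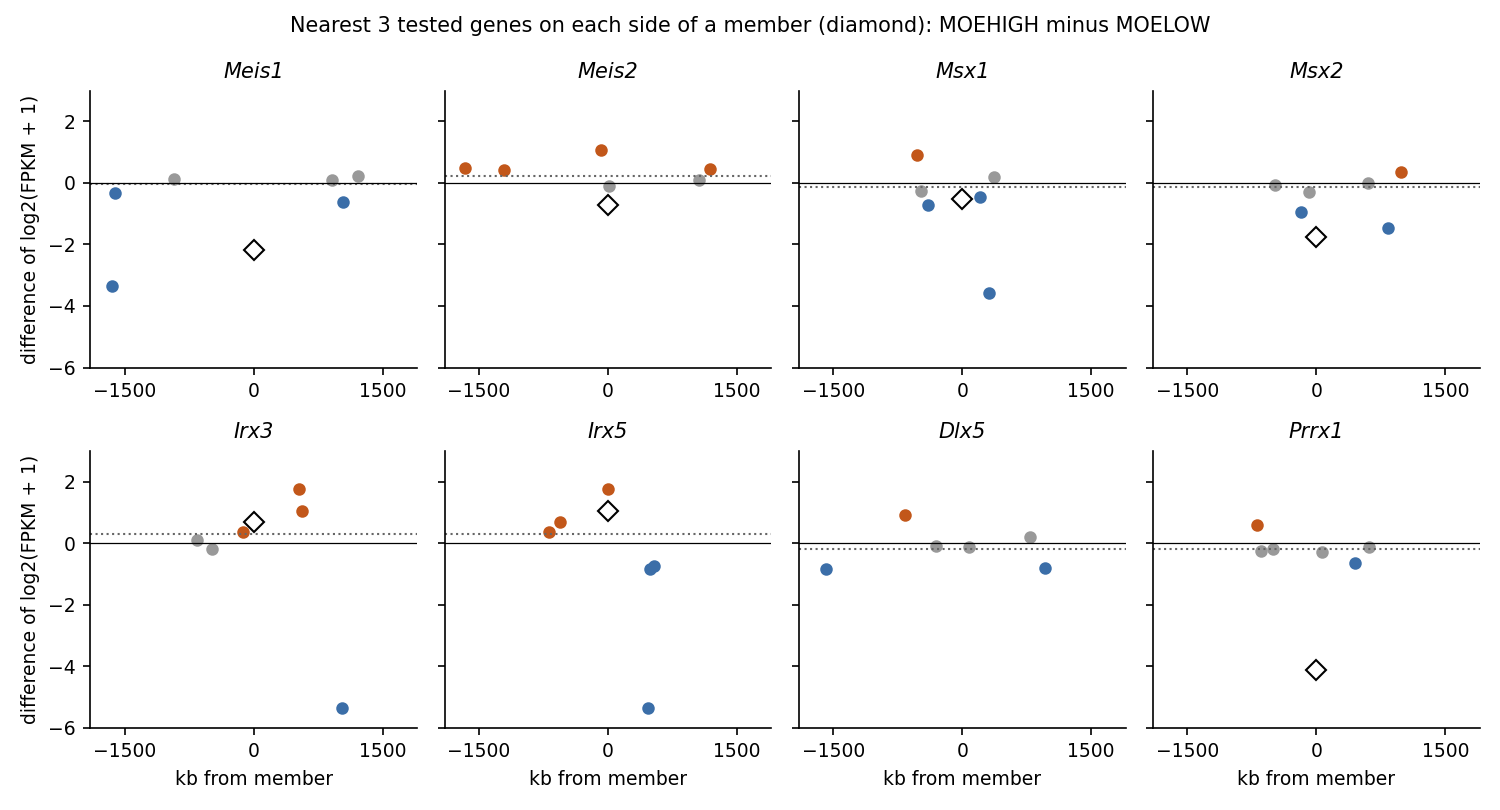
Difference of log2(FPKM + 1), MOEHIGH minus MOELOW, of the 3 nearest tested genes on each side of each member, against the distance in kb (negative values lie at lower coordinates). Orange points were called higher, blue lower and grey not called, the open diamond is the member itself where it was tested, and the dotted line is the median of its chromosome. The diamond of Prrx1 lies at -4.12, below its 6 neighbours, whereas the diamond of Irx5 lies beside the rising 4933436C20Rik.

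The genes whose pattern over the 6 libraries was most like that of each member were found by the root mean square (RMS) difference of their centred log2(FPKM + 1) values, among tested genes whose mean reached 5 FPKM. For Meis1 they were Fblim1, which encodes an adhesion adaptor (RMS 0.0743), and Ddah2 (RMS 0.0989). For Meis2 they were Srpk2 (RMS 0.0532) and the cell cycle inhibitor gene Cdkn1b (RMS 0.0590). Surf4 and Atg9a were nearest to Msx1 (RMS 0.0404 and 0.0555), whose own range over the libraries was small. The small GTPase gene Rras and the Wnt receptor gene Fzd1 were nearest to Msx2 (RMS 0.0813 and 0.0864). Nearest to Irx3 were Tanc1 and Tcirg1 (RMS 0.0668 and 0.0762), and nearest to Irx5 were Traf3ip1 and 1700030K09Rik (RMS 0.0732 and 0.0746).

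For Prrx1 the nearest genes were Cacng7 (RMS 0.0747) and the metalloprotease gene Adam19 (RMS 0.0900). Cacng7 was at 26.1, 14.0 and 14.1 FPKM in MOELOW and was listed at 0 in all MOEHIGH libraries, and so shared with Prrx1 both the high value in passage 8 and late values at or near 0. A listed 0 can be a failed estimate in these tables: 43 genes were at 0 in part of a group and at 5 FPKM or more elsewhere in it, among them Actn1, at 0 in passage 9. With 6 libraries in 2 groups, this measure rests chiefly on the difference between the groups.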

How the data were processed

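RNA sequencing reads had been aligned with TopHat2 2.0.8b to mm10 and summarised with Cuffdiff 2.1.1, and the authors deposited 1 table per library with values in FPKM. The study had made strand-specific libraries from total RNA after removing ribosomal RNA. Reads were not used here, and absolute depth and the strand setting of the alignment are not given in the sources used here. From genes under 0.1 FPKM, the value of 1 fragment relative to passage 8 lay between -0.36 and 0 on the log2 scale. The column headings did not match the library's own record in 6 of 6 tables, so each passage was taken from the record. Exact zeros can be failed estimates, and genes listed at 0 throughout a group were given no fold change.

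Values were tested as log2(FPKM + 1) with limma 3.58.1 in R 4.3.3 (trended variance, no block, minimum mean 0.5 FPKM, Benjamini-Hochberg adjustment over all tested genes, called under 0.05), since Cuffdiff needs reads. The code was tested on simulated data. Ratios of paralogs were compared by exact two-sided permutation. Positions and promoters are those of RefSeq for GRCm38.p6, whose primary sequence is mm10, and exons those of GENCODE. The members and lists were chosen with earlier results of these data known. Genes that could be named were all members, any gene in lists of at most 20 genes and any listed Msx, Dlx or NK-like gene. In other longer lists they were the called genes whose mean reached 5 FPKM. The neighbours and the most alike genes could also be named, and the text gives examples. Alternatives were other scalings, filters and added values, a replicate block, a 2-fold test, differences relative to the chromosome median and leaving out each library. Some of the listed genes that were tested and counted are not reported here by name or drawn.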

Additional observations from a re-analysis of the deposited data

How the results depend on the processing

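Values of 3 libraries a group from a single line limit every result. Low genes such as Msx1 and Irx3 may rest on few fragments, whose number is not known here. Of 122 recomputed member differences, 116 kept their direction and their side of the threshold, 6 lost the call and none reversed, and leaving out any 1 library kept 2 members higher and 5 lower. Replicate numbers did not pair the libraries (correlations of -0.02, -0.15 and 0.12), and with the replicate block 2 members were higher and 5 lower, with 2967 and 3839 of all genes. In limma's test against a 2-fold change, Meis2 (-0.71), Msx1 (-0.54), Irx3 (0.70) and Irx5 (1.04) had an adjusted p of 1, leaving 0 members higher and 3 lower. It called 303 genes higher and 907 lower in all, 4 and 4 other homeobox genes, 1 and 4 neighbours, 0 and 4 BMP genes, 0 and 5 retinoid genes and 1 and 0 HoxA genes. After quantile normalization Msx1 was at -0.011 (limma adjusted p = 0.94), 2 BMP and 2 mesenchymal genes were higher, and 4022 genes were higher and 3071 lower (56.7% of calls higher against 43.1%). Relative to the chromosome median, Irx3 was at 0.41 (limma adjusted p = 0.059), with 1 member and 2 BMP genes higher. With a minimum mean of 5 FPKM, 1 member was higher and 2 lower, 2350 genes were lower in all, 3 and 5 other homeobox genes were higher and lower, 5 BMP and 5 retinoid genes were lower, and 0 and 1 HoxA genes were higher and lower, since fewer genes were tested. At an adjusted p of 0.01, 7 neighbours were higher and 9 lower and 1 retinoid gene was higher. Without a filter, 9 neighbours were lower, 0 BMP genes and 1 retinoid gene were higher. Median-ratio scaling gave 2 BMP genes higher. Without single libraries, 1 to 2 BMP and 1 to 2 retinoid genes were higher, 8 to 12 neighbours were higher and 11 to 18 lower. Among other named genes that were not called, Dlx1 turned to -0.026 relative to the chromosome median and Spred2 ranged from -0.086 to 0.25 without single libraries, lowest without passage 113. Uncalled genes gained a call after quantile normalization (limma adjusted p = 0.0015 for Dlx1 at 0.70, 0.019 for Runx2 and 0.03 for Etaa1) and without passage 113 (0.036 for Gorab at -0.36, limma). Causes of these moves were otherwise not tested.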
